A study of Homo sapiens with 6 samples.

Results

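The genes described here are 58 genes of mitosis and the spindle, read in A2780 ovarian carcinoma cells with and without a CRISPR/Cas9 edit of CDK12. They were chosen by name, as genes known for roles in mitotic entry, chromosome segregation and cytokinesis. The rule uses no measured value, but it was set with earlier results of these data known. All 58 were among the 60483 genes listed in the count table, and all 58 were among the 16198 genes with enough reads to be tested.

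A2780 is an established human ovarian carcinoma cell line. CDK12 is a cyclin-dependent kinase that phosphorylates RNA polymerase II and is needed for full-length transcription of many long genes. Total RNA was sequenced from 3 libraries of unedited A2780 cells (WT) and from 3 libraries of A2780 cells carrying CDK12 disrupted in exon 1 (KO). Both groups were grown in RPMI medium with serum and glutamine, and the labels give no treatment.

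The KO cells are 1 clone, obtained by repeated transfection and selection with a plasmid that carries the guide RNA, Cas9 and GFP, whereas the WT cells are the uncloned parental line. A difference between the groups can therefore not be told apart from a difference between this clone and its parent. The authors report that the KO clone holds more DNA and more chromosomes than its parent, with gains and losses of single chromosomes. The labels do not say that the libraries of a group came from separate cultures, so p-values measure only the spread between these libraries, which may be technical. Libraries held between 11098400 and 30899045 counted reads, and 3 counts, the floor used here, corresponded to between 0.10 and 0.27 CPM, the reads of a gene as scaled to a common library size. CDK12 itself was at 115 ± 11.1 CPM in WT and 98.0 ± 4.64 CPM in KO (mean ± SD, n = 3 libraries each). The log2 fold change was -0.23 (SE 0.0582, edgeR adjusted p = 8.2e-04). Reads were counted over the whole gene, so this value says little about an edit in exon 1. By western blot, the authors report that CDK12 protein was not seen in the KO cells. Of 10 epithelial and ovarian carcinoma markers, EPCAM, KRT8 and KRT18 were above 1 CPM in every library, while KRT7, CDH1, PAX8, MUC16 and the Wilms tumour gene WT1 did not exceed 0.219 CPM in any. The same list summed to 69.2 to 75.2 CPM in WT and 117 to 121 CPM in KO. Of 7 fibroblast markers, 5 passed 1 CPM in every library, and the list summed to between 11112 and 11480 CPM in WT and between 8544 and 8824 CPM in KO. No leukocyte marker of 7 and no endothelial marker of 5 reached 1 CPM in every library, and each summed list stayed close to 1 CPM or below in every library. The part of these marker differences in the results below was not tested.

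In mitosis, CDK1 bound to cyclins A and B drives the cell into division, kinetochores on each centromere attach chromosomes to spindle microtubules, and the spindle checkpoint holds the cell until every kinetochore is attached. The anaphase-promoting complex (APC/C) then marks securin and cyclin B for destruction, separase opens the cohesin rings that hold sister chromatids, and the cell is cut apart at the midzone. Many genes of these steps are transcribed together late in the cell cycle, and proteins of the DREAM, MuvB and FOXM1 complexes are known to act on their promoters through a short element called the cell cycle homology region and through CCAAT boxes, which bind NF-Y.

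The 58 genes were more often lower than higher in KO. At an adjusted p under 0.05 by edgeR's quasi-likelihood test, 30 were lower, 10 were higher and 18 were not called. Over all tested genes 32% were called lower and 31.9% were called higher, against 51.7% and 17.2% of the mitosis genes. Their log2 fold changes had a median of -0.14, beside a median near 0 over all tested genes. The WT and KO libraries did not overlap in 30 of them with KO below (33.5% of all tested genes) and in 10 with KO above (32.8%), beside 66.4% of all tested genes in either direction. In the remaining 18 the groups overlapped. Securin, PTTG1, was the 1 mitosis gene called lower with a log2 fold change beyond -1, beside 7.73% of all tested genes. No mitosis gene rose by more than 1 on the log2 scale by edgeR, voom/limma or DESeq2, at an adjusted or an unadjusted p, beside 8.3% of all tested genes called so by edgeR. The other mitosis genes called lower had log2 fold changes between -0.94 and -0.13, and those called higher between 0.15 and 0.39. In RNA from whole cultures, fewer cells in mitosis and a smaller share of these transcripts within each cell cannot be told apart. CPM is a share of the reads, so the amount of RNA per cell was not measured. From flow cytometry of DNA content, the paper reports that KO and parental cells were spread similarly over the cell cycle.

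**Figure D1:**
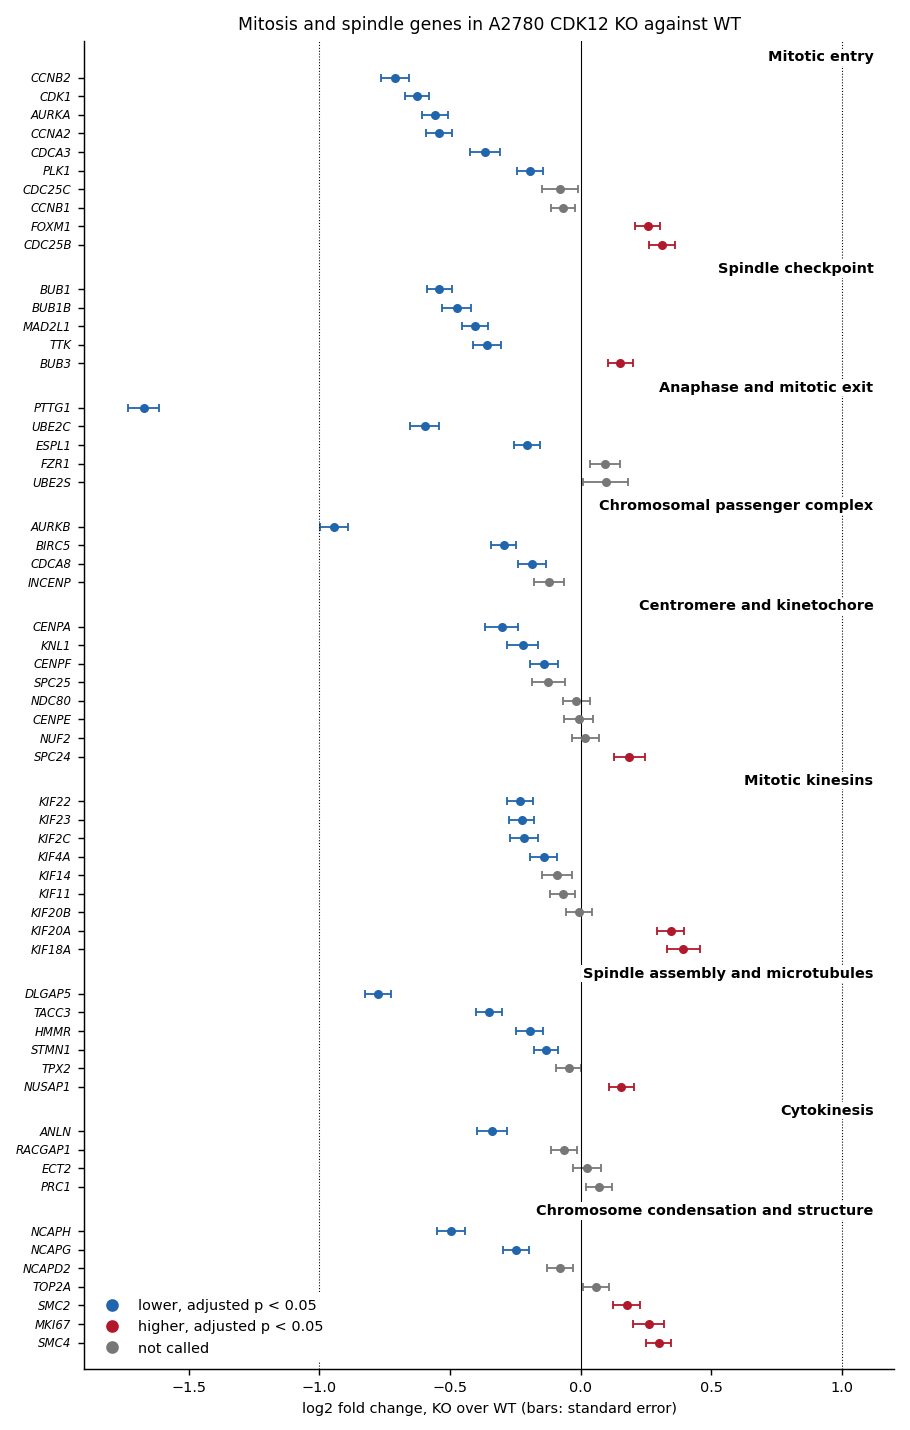
Log2 fold change of each of the 58 mitosis and spindle genes, KO over WT, with its standard error as a bar, in 9 role groups. Blue points are lower, red points higher at an adjusted p under 0.05 by edgeR, grey points were not called, and dotted lines mark -1 and 1. PTTG1, at -1.67, lies alone beyond -1, while chromosome condensation holds 3 red and 2 blue points.

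Summed over the 58 genes, the level was 8157, 8703 and 8402 CPM in the WT libraries and 7868, 7674 and 7943 CPM in the KO libraries. All 3 KO sums lay below the lowest WT sum. Per kilobase of annotated exon, CCNB1 stood highest in WT at 102.6 CPM per kilobase and in KO at 98.0, followed in WT by TPX2 at 76.1 and CCNA2 at 73.5. The lowest per-length levels in WT were those of FZR1 at 7.61 and KIF18A at 7.94 CPM per kilobase. All of these genes were well counted, since the smallest number of reads for any of them in any library was 293, for CDC25C.

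The promoters of these genes are shown because genes that carried the same elements were found among those lower, not called and higher. The 120 bases before the RefSeq start (build GRCh38.p14) are printed 5′ to 3′ on the gene's strand. Matches to the cell cycle homology element (TTTGAA, or a rarer form with sequence TTCGAA) and to the NF-Y box CCAAT are in capitals. Other forms of the homology element were not searched for, here or below. On the other strand TTTGAA reads TTCAAA. The NF-Y box CCAAT reads ATTGG there, and the rarer form of the homology element is its own reverse complement. These genes were picked after their values were seen. PTTG1, DLGAP5, CCNB2, ESPL1 and NCAPG were lower in KO, INCENP, CCNB1 and KIF11 were not called, and MKI67, CDC25B and KIF18A were higher.
PTTG1, chr5:160421735-160421854, + strand: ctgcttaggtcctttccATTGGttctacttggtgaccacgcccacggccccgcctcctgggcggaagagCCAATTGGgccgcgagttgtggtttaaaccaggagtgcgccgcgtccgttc
DLGAP5, chr14:55191586-55191705, - strand: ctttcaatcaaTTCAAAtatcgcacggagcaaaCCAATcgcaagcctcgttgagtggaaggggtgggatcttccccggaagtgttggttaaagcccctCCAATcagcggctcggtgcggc
CCNB2, chr15:59105026-59105145, + strand: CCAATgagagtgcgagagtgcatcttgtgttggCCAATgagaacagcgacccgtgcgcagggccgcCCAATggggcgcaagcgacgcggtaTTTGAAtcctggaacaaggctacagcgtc
ESPL1, chr12:53268179-53268298, + strand: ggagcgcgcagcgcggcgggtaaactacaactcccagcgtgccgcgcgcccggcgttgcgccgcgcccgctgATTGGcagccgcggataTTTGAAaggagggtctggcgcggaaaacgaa
NCAPG, chr4:17810859-17810978, + strand: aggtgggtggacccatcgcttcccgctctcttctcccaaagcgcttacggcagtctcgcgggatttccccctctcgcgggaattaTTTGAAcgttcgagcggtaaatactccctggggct
INCENP, chr11:62123891-62124010, + strand: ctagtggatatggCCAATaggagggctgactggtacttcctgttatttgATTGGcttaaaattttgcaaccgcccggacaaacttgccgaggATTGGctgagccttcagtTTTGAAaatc
CCNB1, chr5:69167030-69167149, + strand: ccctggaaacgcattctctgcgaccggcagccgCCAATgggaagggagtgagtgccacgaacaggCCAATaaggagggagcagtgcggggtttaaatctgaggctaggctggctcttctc
KIF11, chr10:92593010-92593129, + strand: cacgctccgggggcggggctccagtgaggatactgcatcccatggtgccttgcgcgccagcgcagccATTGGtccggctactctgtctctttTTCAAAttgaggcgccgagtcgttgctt
MKI67, chr10:128126424-128126543, - strand: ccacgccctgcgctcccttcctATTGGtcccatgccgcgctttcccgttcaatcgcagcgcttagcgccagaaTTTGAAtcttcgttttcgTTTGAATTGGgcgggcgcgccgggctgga
CDC25B, chr20:3796190-3796309, + strand: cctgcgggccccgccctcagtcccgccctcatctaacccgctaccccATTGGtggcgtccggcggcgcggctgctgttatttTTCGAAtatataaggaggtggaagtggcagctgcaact
KIF18A, chr11:28108157-28108276, - strand: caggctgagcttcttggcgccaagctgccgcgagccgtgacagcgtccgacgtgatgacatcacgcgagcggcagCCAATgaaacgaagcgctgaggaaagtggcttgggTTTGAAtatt

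CCNB2, ESPL1 and NCAPG carried TTTGAA 29, 31 and 35 bases before the start, and KIF11, whose level was not called different, carried it 28 bases before the start. In MKI67 the element stood at 47 and again at 29 bases before the start, and CDC25B held the TTCGAA form at 38 bases. KIF18A and INCENP held TTTGAA close to the start, at 10 bases. PTTG1 held no match to either form in the bases shown but 3 to CCAAT, at 103, 51 and 48 bases before the start, of which the latter pair overlap. CCNB1 likewise held 2 matches to CCAAT and none to TTTGAA or TTCGAA, whereas its relative CCNB2 held 3 and 1. Since no other form was searched for, PTTG1 and CCNB1 are not shown to lack the element.

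Promoter entries, from 250 bases before to 50 after the start, were found for 49 of the 58 genes, with 65 promoters in all. FOXM1, KNL1, AURKA, TPX2, TTK, BIRC5, UBE2C, RACGAP1 and BUB3 had no entry. Either form of the homology element was found on either strand in 63.1% of the 65 promoters and in 16.4% of 35116 promoters of the same length. TTTGAA alone was found in 56.9% and 15.2%. From 100 bases before to 50 after the start the shares were 53.8% and 7.37%, and for CCAAT over the full length 66.2% and 34.6%. Counted by gene, 37 of the 49 held TTTGAA or TTCGAA, beside 15.3% of 11165 tested genes with an entry.

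TTTGAA or TTCGAA was found both among genes that moved and among genes not called. It was in 18 of 25 genes called lower, 6 of 8 called higher and 13 of 16 not called. The median log2 fold change was -0.12 in the 37 genes with either of these forms and -0.17 in the 12 with neither. Genes with neither form included PTTG1 and AURKB, which had the most negative log2 fold changes of the 58, and also KIF20A, which was higher. These genes may hold the element in a form not searched for. A match of 6 letters is a description of the sequence and does not show that a factor binds there.

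The counts of each role group, here and below, are to be read against the 32% lower and 31.9% higher of all tested genes. Of the 10 genes of mitotic entry, 6 were lower, 2 were higher and 2 were not called. CDK1, the kinase at the centre of mitotic entry, was at 200.2, 198 and 202 CPM in WT and at 126, 132 and 130.1 CPM in KO. The KO values lay far below all WT values, and the log2 fold change was -0.63 (SE 0.047, adjusted p = 2.4e-13). CCNB2, 1 of the mitotic B-type cyclins that bind CDK1, was at 84.9, 89.7 and 80.5 CPM in WT and at 53.8, 51.3 and 51.5 CPM in KO, a log2 fold change of -0.71 (SE 0.0541, adjusted p = 3.58e-13). The KO values for CCNB2 were close together and the groups were far apart.

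CCNB1, the other main mitotic B-type cyclin, was at 251, 252 and 245 CPM in WT and at 237, 243 and 235 CPM in KO. Its KO libraries all lay below its WT libraries, but by little, and with a log2 fold change of -0.07 (SE 0.0457, adjusted p = 0.208) it was not called. AURKA, the kinase that matures centrosomes and activates PLK1, fell from 101 ± 3.73 to 68.5 ± 0.569 CPM, a log2 fold change of -0.56 (adjusted p = 2.65e-11). CCNA2, CDCA3 and PLK1 were the other genes called lower in this group, with log2 fold changes of -0.54, -0.37 and -0.19. CDC25B, a phosphatase that removes inhibitory phosphates from CDK1, rose from 88.4 ± 0.527 to 109.6 ± 1.59 CPM, a log2 fold change of 0.31 (adjusted p = 1.46e-06). FOXM1, a transcription factor of late cell cycle genes, rose from 155 ± 8.59 to 186 ± 4.22 CPM, a log2 fold change of 0.26 (adjusted p = 3.7e-05). CCNA2, CDCA3, PLK1, CDC25B and FOXM1 were named after their values were seen.

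Of the 5 spindle checkpoint genes, 4 were lower and 1 was higher. BUB1, a checkpoint kinase that marks centromeric chromatin, was at 183, 200.2 and 189 CPM in WT and at 129, 129 and 136 CPM in KO, a log2 fold change of -0.54 (SE 0.0492, adjusted p = 2.58e-11). BUB1B, which encodes the checkpoint protein BUBR1 that inhibits the APC/C, fell from 121 ± 10.2 to 87.1 ± 0.756 CPM, a log2 fold change of -0.48 (adjusted p = 4.56e-09). MAD2L1, the checkpoint protein that captures the APC/C activator CDC20, fell from 147 ± 2.5 to 111 ± 4.02 CPM, a log2 fold change of -0.40 (adjusted p = 1.04e-08). TTK, the kinase at the top of the checkpoint, was lower by a log2 fold change of -0.36 and was named after its value was seen.

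BUB3, the partner that brings BUB1 and BUBR1 to kinetochores, moved the other way, from 227, 230.5 and 225 CPM in WT to 261, 245 and 252 CPM in KO. Its groups did not overlap, and its log2 fold change was 0.15 (SE 0.0464, adjusted p = 0.00504). Without KO replicate 1 the value was 0.13 with an adjusted p of 0.0543, so the call for BUB3 rested on that library.

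Of the 5 genes of anaphase and mitotic exit, 3 were lower and 2, FZR1 and UBE2S, were not called. PTTG1 encodes securin, the inhibitor that holds separase inactive until anaphase, and lies on chromosome 5 at chr5:160421855-160428739 on the forward strand (GRCh38, GENCODE 44). It was at 63.4, 61.6 and 63.9 CPM in WT and at 20.1, 19.9 and 19.0 CPM in KO. The libraries of each group were within 3 CPM of each other, and WT was 3.19 times KO, with a log2 fold change of -1.67 (SE 0.0605, adjusted p = 8.17e-22). ESPL1, separase itself, fell less, from 136 ± 7.08 to 118 ± 0.802 CPM, a log2 fold change of -0.20 (adjusted p = 6.14e-04). UBE2C, the enzyme that starts ubiquitin chains for the APC/C, fell from 79.0 ± 1.71 to 52.3 ± 3.31 CPM, a log2 fold change of -0.60 (adjusted p = 3.4e-11). FZR1, an activator of the APC/C late in mitosis and in G1, was at 49.3 ± 1.43 CPM in WT and 52.7 ± 2.26 CPM in KO, and the groups overlapped (log2 fold change 0.09, adjusted p = 0.149). With library totals alone as the scaling, FZR1 was called higher with a log2 fold change of 0.14 (adjusted p = 0.0311).

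**Figure D2:**
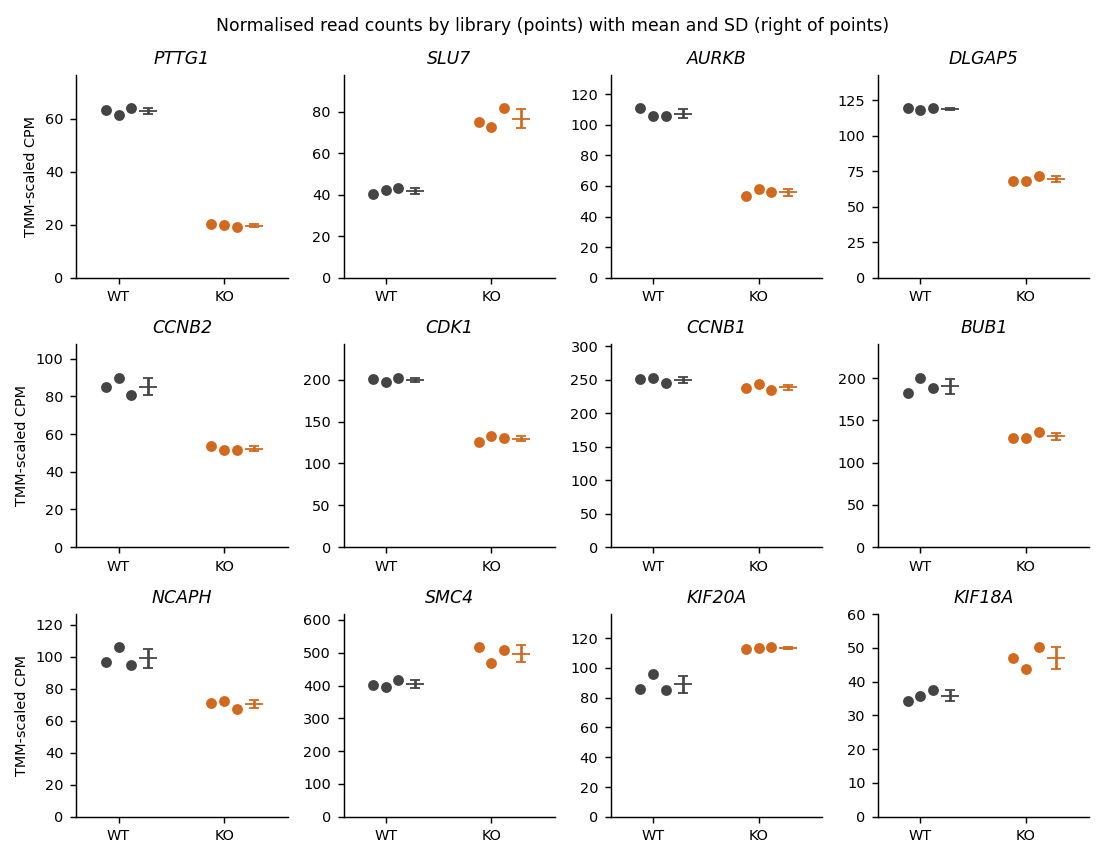
Normalised read counts (TMM-scaled CPM) of 11 mitosis genes and of SLU7, the neighbour of PTTG1, in each library, with the mean and SD of the 3 libraries of a group to the right of its points. PTTG1, AURKB and DLGAP5 show the widest gaps downward, CCNB1 stays close to its WT level, and SMC4, KIF20A and KIF18A lie above WT in all 3 KO libraries.

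Of the 4 genes of the chromosomal passenger complex, which corrects wrong attachments and guides cytokinesis, 3 were lower. AURKB, its kinase, was at 111, 105 and 106 CPM in WT and at 53.4, 57.7 and 56.3 CPM in KO. The groups were far apart, WT was 1.92 times KO, and the log2 fold change was -0.94 (SE 0.0521, adjusted p = 8.25e-17). BIRC5, which encodes survivin, fell from 164 ± 2.96 to 134 ± 5.35 CPM, a log2 fold change of -0.30 (adjusted p = 2.93e-06). CDCA8, which encodes borealin, fell from 78.2 ± 4.29 to 69.1 ± 2.63 CPM, a log2 fold change of -0.19 (adjusted p = 0.00301). INCENP, the scaffold that binds and activates AURKB, was at 65.1, 78.0 and 73.9 CPM in WT and 66.0, 65.0 and 68.4 CPM in KO, and was not called (log2 fold change -0.12, adjusted p = 0.0698). WT replicate 1 lay among the KO values for INCENP. Without that library the log2 fold change was -0.21 with an adjusted p of 0.00211.

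Of the 8 centromere and kinetochore genes, 3 were lower, 1 was higher and 4 were not called. The lower share of 37.5% is near the 32% of all tested genes. CENPA, the histone variant that marks centromeres, fell from 37.1 ± 0.51 to 30.1 ± 1.47 CPM, a log2 fold change of -0.30 (adjusted p = 8.06e-05). KNL1, the kinetochore scaffold for BUB1 and BUB3, was at 110.4, 132 and 134 CPM in WT and 105, 104 and 113 CPM in KO. The lowest WT library lay below the highest KO library, and KNL1 was called lower with a log2 fold change of -0.22 (SE 0.0586, adjusted p = 0.00141). SPC24, a subunit of the microtubule-binding NDC80 complex, rose from 38.2 ± 2.07 to 43.6 ± 0.313 CPM, a log2 fold change of 0.19 (adjusted p = 0.00692). The other subunits of that complex, NDC80, NUF2 and SPC25, were not called. CENPE, a kinetochore motor, was at 185 ± 9.21 CPM in WT and 184 ± 16.6 CPM in KO, a log2 fold change of -0.01 (adjusted p = 0.907).

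Of the 9 mitotic kinesins, 4 were lower, 2 were higher and 3 were not called. These shares were 44.4% lower and 22.2% higher, beside 32% and 31.9% of all tested genes. KIF18A, which damps the movement of chromosomes at the spindle equator, was at 34.2, 35.8 and 37.6 CPM in WT and at 47.1, 43.6 and 50.1 CPM in KO. Its groups were clearly apart, and its log2 fold change of 0.39 (SE 0.0623, adjusted p = 1.9e-06) was the most positive of the 58. KIF20A, a kinesin that carries the passenger complex to the midzone, was at 85.7, 95.7 and 85.5 CPM in WT and at 113, 113 and 114 CPM in KO, a log2 fold change of 0.34 (adjusted p = 7.88e-07). KIF20B, a relative of KIF20A that acts late in cytokinesis, was at 113 CPM in both groups (SD 2.99 in WT and 6.12 in KO, log2 fold change -0.01, adjusted p = 0.906). KIF22, a chromosome-arm motor, fell from 152 ± 3.79 to 129 ± 6.67 CPM, a log2 fold change of -0.23 (adjusted p = 1.29e-04). The other 3 kinesins called lower, KIF23, KIF2C and KIF4A, were named after their values were seen and had log2 fold changes between -0.23 and -0.14.

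Of the 6 genes of spindle assembly and microtubules, 4 were lower, NUSAP1 was higher and TPX2 was not called. DLGAP5, which encodes the spindle protein HURP, was at 119, 118 and 119 CPM in WT and at 68.1, 68.2 and 71.6 CPM in KO. Both groups were tight, and the log2 fold change was -0.78 (SE 0.0496, adjusted p = 3.94e-15). TACC3, which stabilises bundles of spindle microtubules with clathrin, fell from 184 ± 6.4 to 144 ± 6.36 CPM, a log2 fold change of -0.35 (adjusted p = 2.18e-07). HMMR, a spindle pole protein, fell from 71.7 ± 1.38 to 62.8 ± 2.44 CPM, a log2 fold change of -0.20 (adjusted p = 0.00166). TPX2, the activator of AURKA on the spindle, was at 275 ± 10.7 CPM in WT and 266 ± 2.54 CPM in KO (log2 fold change -0.05, adjusted p = 0.395). NUSAP1, named after its value was seen, had a log2 fold change of 0.15 and was not called without WT replicate 3.

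Of the 4 cytokinesis genes, 1 was lower and 3 were not called. The lower share of 25% is near the 32% of all tested genes. ANLN, which encodes anillin of the contractile ring, was at 151, 182 and 164 CPM in WT and at 137, 123 and 134 CPM in KO. Its WT libraries were widely spread yet all above KO, and its log2 fold change was -0.34 (SE 0.057, adjusted p = 4.93e-06). ECT2, which activates the small GTPase RhoA at the division site, was at 138 ± 8.95 CPM in WT and 141 ± 6.79 CPM in KO, and the groups overlapped (log2 fold change 0.02, adjusted p = 0.704).

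Of the 7 genes of chromosome condensation, 3 were higher and 2 were lower, and their median log2 fold change was 0.06. These shares, 42.9% and 28.6%, are near the 31.9% and 32% of all tested genes. SMC4, a core ATPase shared by both condensins, was at 403, 394 and 416 CPM in WT and at 516, 469 and 507 CPM in KO, a log2 fold change of 0.30 (SE 0.0481, adjusted p = 2.33e-06). All 3 KO libraries lay above WT. NCAPH, the subunit that closes the condensin I ring on SMC2 and SMC4, moved the other way, from 96.8, 106 and 95.0 CPM in WT to 71.3, 72.4 and 67.6 CPM in KO, a log2 fold change of -0.50 (SE 0.0533, adjusted p = 1.03e-09). SMC2, the partner of SMC4, had a log2 fold change of 0.18, and NCAPG, another condensin I subunit, of -0.25. SMC2 and NCAPG were named after their values were seen. MKI67, which encodes the proliferation marker Ki-67 that coats mitotic chromosomes, was at 454, 582 and 498 CPM in WT and at 614, 595 and 629.9 CPM in KO. The WT spread was wide, the groups did not overlap, and the log2 fold change was 0.26 (SE 0.0593, adjusted p = 3.05e-04). TOP2A, the topoisomerase that untangles sister chromatids, was not called at 297 ± 14.1 and 309 ± 14.6 CPM (log2 fold change 0.06, adjusted p = 0.308).

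**Figure D3:**
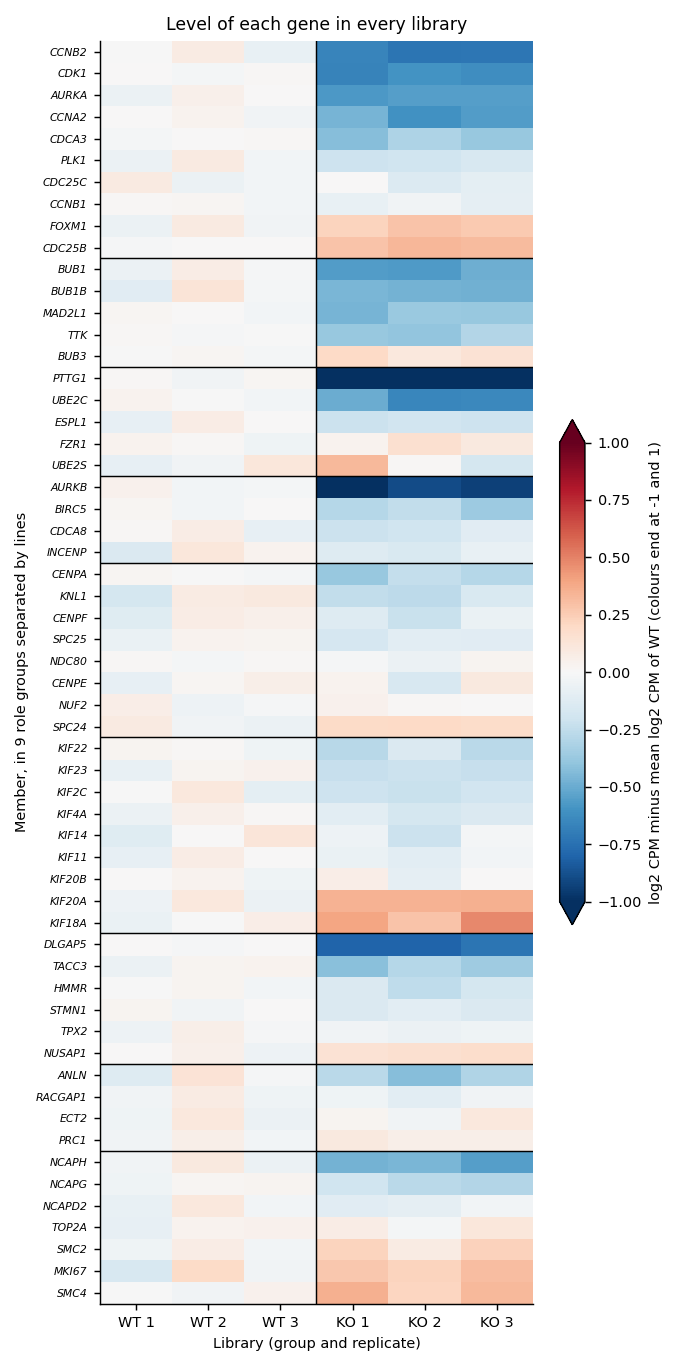
Level of each of the 58 genes in every library as log2 CPM minus the mean log2 CPM of the 3 WT libraries, with blue for lower and red for higher and colours ending at -1 and 1. Genes are in 9 role groups separated by lines. The 3 KO libraries resemble each other in nearly every row, and CCNB1, NDC80 and KIF20B are pale in all 6 libraries.

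Some partner proteins moved together in RNA and others did not. SMC2 and SMC4 were both higher, and AURKB, BIRC5 and CDCA8 were all lower, as were BUB1 and BUB1B. The following pairs were picked after the values were seen, for their difference, and are given without a test. Between log2 fold changes, CDK1 lay below CCNB1 by -0.56 and CCNB2 lay below CCNB1 by -0.64. PTTG1 lay below its target ESPL1 by -1.47, and AURKB below its scaffold INCENP by -0.82. BUB1 differed from BUB3 by -0.69 and NCAPH from SMC4 by -0.80, and in both pairs the partners were called in opposite directions.

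CENPF and KNL1 were called lower although their groups overlapped, and CCNB1 and SPC25 were not called although all their KO values lay below all WT values. With 3 libraries against 3, an exact two-sided permutation test of a single gene cannot give a p below 0.1, and this was its value for PTTG1, CDK1 and CCNB1 alike.

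SLU7, a splicing factor gene on the opposite strand at chr5:160401641-160421711, begins 143 bases from the start of PTTG1, so the PTTG1 promoter printed above lies between both starts. SLU7 was at 40.2, 42.0 and 43.2 CPM in WT and at 75.2, 72.7 and 81.6 CPM in KO. Its KO libraries all lay above WT, and its log2 fold change was 0.87 (SE 0.0571, adjusted p = 7e-15). Among the 10 tested genes nearest to PTTG1, 5 on each side, 4 were higher and 2, CCNG1 and HMMR, were lower, with log2 fold changes of -0.16 and -0.20 for the latter pair. The median log2 fold change of the 10 was 0.08, and shares of this kind are near the 31.9% higher and 32% lower over all tested genes.

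In all, 11 of the 58 genes had a tested gene on the other strand whose outermost annotated start lay up to 500 bases upstream of theirs. Pairs of genes that overlap at their starts were not counted. In 3 of these pairs the partners were called in opposite directions, in 2 in the same direction, and in 6 at least 1 partner was not called. The share of such pairs over all tested genes was not counted. Since 63.9% of all tested genes were called, these counts are given as a description only. Opposite calls were seen for PTTG1 with SLU7, for HMMR with NUDCD2, 100 bases apart and with log2 fold changes of -0.20 and 0.15, and for FOXM1 with TULP3, 48 bases apart and at 0.26 and -0.14. CDC25B and KIF18A were called higher together with their partners CENPB and METTL15, whose log2 fold changes were 0.13 and 0.26. The CDC25B promoter printed above is 1 of 4 listed. It lies within the gene, not between the outermost starts of CDC25B and CENPB.

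Some of the genes lay among neighbours called mostly in 1 direction. The examples here were picked after the values were seen, and over all tested genes 32% were called lower and 31.9% higher. On chromosome 4, MAD2L1 at chr4:120055623 had 9 of its 10 nearest tested genes called lower, with a median log2 fold change of -0.62, and CCNA2 at chr4:121816444 had 8 called lower. On chromosome 5, CCNB1 had 9 of 10 neighbours called higher, with a median of 0.43, although CCNB1 itself was not called. TTK on chromosome 6 was lower while 8 of its 10 neighbours were higher. CDC25C and NUF2, neither of them called, also had 9 of 10 neighbours called higher. Other genes lay among mixed neighbours, such as INCENP with 4 lower and 4 higher. Across the 58 genes the log2 fold change and the median of the 10 neighbours had a Pearson r of 0.25 and a Spearman rho of 0.29, given as a description over points that share the same 6 libraries and in part the same neighbours. The KO clone differs from its parent in chromosome number, as given above. Gene copy number is not measured in these data, and its part in these values was not tested.

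Reads that match more than 1 gene may be counted with another gene or left out, and their handling was not given in the sources used here. Exonic bases were shared with another listed gene in 24 of the 58, and in 8 of them at least 5% of the exonic bases were shared with a tested gene. CCNA2 shared 9.24% with EXOSC9 on the opposite strand, which was lower with a log2 fold change of -0.31, and NCAPG shared 33.7% with LCORL, which was lower at -0.46. KIF20A shared 3.43% with BRD8, which was higher at 0.72. The strand setting of the counting was not given in the sources used here, so values of these genes are uncertain to that extent. On the same strand, CENPA shared 7.08% with SLC35F6, which was not called. NUSAP1, called higher, shared 5.4% with OIP5-AS1, which was lower at -0.17. A strand setting would not separate the reads of such genes. Pseudogenes or close copies were listed for 18 of the genes, 28 copies in all, and only those of UBE2C and UBE2S held over 1% of the reads of the gene, at 3.05% and 6.26%. PTTG2 and PTTG3P, close copies of PTTG1, held 7 and 13 counts over all 6 libraries beside 5662 for PTTG1.

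Genes of mitosis outside the 58 were read from 12 further lists of 154 genes, of which 151 were tested. Of the tested genes 82 (54.3%) were lower and 24 (15.9%) were higher, beside 32% and 31.9% of all tested genes, and the median log2 fold change was -0.16. Past both thresholds 4 were lower and 1 was higher, a smaller share than the 7.73% and 8.3% of all tested genes. The counts of single lists below are to be read against the same 32% and 31.9%.

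Securin and cyclin B are targets of the APC/C. Of 5 genes of its activators and inhibitors, 3 were lower. CDC20, the activator that the spindle checkpoint holds back, was at 287, 319 and 298 CPM in WT and at 104, 109 and 102 CPM in KO, a log2 fold change of -1.52 (SE 0.0509, adjusted p = 9.3e-23). Its groups were far apart, much as those of PTTG1 were. UBE2D1, an E2 enzyme that can work with the APC/C, had a log2 fold change of -0.65. Of 14 core subunits, 5 were lower and 3 were higher, and the lower share of 35.7% is near that of all tested genes. ANAPC16 was higher at 0.57. CDC26 was called lower at -0.53, although its groups overlapped at levels under 6 CPM.

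Of 8 further genes of the checkpoint and outer kinetochore, 4 were lower and 1 was higher. The shugoshins, which protect centromeric cohesin, were called in opposite directions, SGO2 with a log2 fold change of -0.58 and SGO1 with 0.35. Of 23 genes of the MIS12 complex and the constitutive centromere network, 11 were lower and 4 higher, with CENPI at -0.78 and CENPW at -0.61. Of 18 genes of the SKA complex and spindle attachment, 10 were lower and 4 higher, with HAUS3 and HAUS1, subunits of augmin, at -0.62 and -0.60.

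Of 14 genes of cohesin and its regulators, 7 were lower and 4 higher, and the count of lower genes was 3 when libraries were scaled by totals alone, and 4 without WT replicate 2 or without KO replicate 2. STAG2, a cohesin subunit, was at 219, 234 and 235 CPM in WT and at 511, 449 and 528 CPM in KO, a log2 fold change of 1.11 (SE 0.0538, adjusted p = 2.3e-18). SMC3, part of the cohesin ring, was lower at -0.55. Of the 3 remaining condensin subunits, NCAPG2 and NCAPD3 of condensin II were lower at -0.44 and -0.19.

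Of 18 other regulators of mitotic entry and exit, 12 were lower and 2 higher, with the phosphatase CDC14B at -0.50 and the CDK-binding protein CKS2 at -0.34. Of 12 centrosome duplication genes, 5 were lower and 2 higher, with PLK4, the kinase that starts centriole assembly, at -0.61 and CEP63 at 0.57. Of 13 other kinesins and cytokinesis genes, 7 were lower and 1 higher. The most changed in that list were AURKC, best known from meiosis and at only 1.24 ± 0.332 CPM in WT and 0.53 ± 0.198 CPM in KO (log2 fold change -1.06, adjusted p = 0.0024), and KIF5B, a cargo motor of interphase cells, at -0.56. Of 12 DREAM and MuvB factors, 7 were lower and 3 higher, with the repressor subunits E2F4 and E2F5 at -0.50 and -0.41. Of 14 tubulins, 11 were tested, 9 were lower and 2 were not called, with TUBA1A at -1.23 and TUBD1 at -1.09. Tubulin genes are near-identical copies in part, so reads may be split between them or left out.

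DNA replication genes, which are transcribed earlier in the cell cycle, were read for comparison. Of 41, 32 were lower and 4 higher, and their median log2 fold change was -0.21. They included CCNE2, cyclin E2, at -2.63 and POLE2, a subunit of DNA polymerase epsilon, at -1.44. The difference between this list and the mitosis genes was not tested.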

How the data were processed

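RNA from 6 libraries of A2780 cells, 3 WT and 3 KO, was made into stranded libraries and sequenced as single-end reads of 75 bases. Per the labels and methods, the authors checked reads with FastQC, aligned them with STAR to GRCh38 and counted them per gene with HTSeq; tool versions, annotation release and strand setting are not given in the sources used here. The deposited values are raw read counts per Ensembl gene, not normalised. Identifiers without version were matched to GENCODE 44 for symbols and positions (56321 of 60483).

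Counts were tested with edgeR 4.0.16 (R 4.3.3), quasi-likelihood, two-sided, with TMM scaling, filterByExpr (minimum count 10, minimum total 15) and Benjamini-Hochberg adjustment over 16198 genes. Calls use an adjusted p under 0.05, alone or with a log2 fold change beyond -1 or 1. voom/limma 3.58.1, which the authors used, and DESeq2 1.42.0 were alternatives, as were other scalings, filters, thinning to the smallest total, summing with listed copies (PTTG3P and KIF4B were added after seeing the data), and leaving out each library. CPM values are TMM-scaled and the biological coefficient of variation was 4.35%. No 2 libraries within WT or KO agreed within counting noise (chi-square per degree of freedom 1.69 to 6.98). On simulated data of 13603 genes for KO against WT, edgeR found 70 of 100 genes changed by 0.3 on the log2 scale and 100 of 100 changed by 1.5, with 9 false calls. Every simulated gene had the same coefficient of variation, and only these genes were changed. In the real data the spread differed between genes and 63.9% of genes were called, so these figures need not hold there.

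The genes, roles, lists and motifs were chosen with earlier results of these data known. Named genes were every member past both thresholds, per role the 3 with the largest absolute log2 fold change at an adjusted p under 0.05 and the 1 with the smallest, per list every gene past both thresholds and the 2 largest, and CDK12. Promoter sequences are from RefSeq, GRCh38.p14.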

Additional observations from a re-analysis of the deposited data

How the results depend on the processing

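Over the 58 genes, the number lower at an adjusted p under 0.05 ranged from 27 to 30 over the alternatives that kept all libraries and from 28 to 35 on leaving out 1 library, and the number higher from 10 to 12 and from 9 to 10. The median log2 fold change ranged from -0.14 to -0.09 and from -0.19 to -0.12. PTTG1 was the 1 gene past both thresholds under each of these. Scaling by library totals alone moved the median of all genes most, by 0.0471 on the log2 scale. With it, 1 gene of anaphase and 1 of cytokinesis were higher, and 3 of cohesin were lower.

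The log2 fold change of CENPE and the log2 fold change of KIF20B, both near 0, turned to 0.0192 and 0.0199 with upper-quartile scaling, to 0.0361 and 0.0377 with library totals and to 0.0152 and 0.0157 with at least 10 counts in every library. On leaving out 1 library, log2 fold changes of CENPE ranged from -0.0596 to 0.0661, of KIF20B from -0.0473 to 0.0357 and of ECT2 from -0.00981 to 0.0781, none called. INCENP was also called when libraries were thinned (-0.14, adjusted p = 0.0425). Leaving out 1 library gave 1 to 2 centrosome genes higher (1 without WT replicate 1), 4 to 7 cohesin genes lower, 0 to 1 spindle assembly genes and 2 to 4 SKA genes higher (0 and 2 without WT replicate 3), and 0 to 1 checkpoint genes higher (0 without KO replicate 1). The cause of these changes was not tested. No paired analysis was possible because the labels number the samples 1 to 6 across the groups and give no pairing. Replicate numbers used here only follow that order within each group. At depths of 11098400 to 30899045 reads, standard errors of the 58 genes were 0.0457 to 0.0849 on the log2 scale, so differences of that size were not detectable.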
